A study of Mus musculus with 18 samples.

Results

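Cells survive or die by apoptosis according to the balance of the BCL-2 protein family. Members of the family that protect the cell (BCL-2, BCL-XL, MCL-1 and A1) hold the effectors BAX and BAK in check at the outer mitochondrial membrane, the BH3-only proteins (BIM, BID and NOXA among them) bind the protective members or the effectors, and active BAX and BAK open the membrane so that cytochrome c can leave and caspases are activated. Dendritic cells (DCs) are short-lived antigen-presenting cells, and their lifespan after activation is known to depend on this balance. The genes described here are 10 members: the survival genes Bcl2, Bcl2l1 (BCL-XL), Mcl1, Bcl2a1b and Bcl2a1d (2 copies of A1), the BH3-only genes Bcl2l11 (BIM), Bid and Pmaip1 (NOXA), and the effectors Bax and Bak1. They were taken by symbol from a table of 62197 rows, and 10 of 10 were found and passed the filter on low values that left 17875 genes to test.

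The libraries are bulk RNA-seq of bone marrow-derived mouse DCs cultured for 10 days with supernatant containing granulocyte-macrophage colony-stimulating factor. Cells came from mice labelled WT or KO for cPLA2, the cytosolic phospholipase encoded by Pla2g4a. In the study's methods the knockout is a floxed Pla2g4a allele deleted by Cre under the Itgax (CD11c) promoter, so the deletion is restricted to cells that express this promoter, and other cells of the culture need not carry it. Cells were nonconfined and taken at the end of culture, squeezed under a roof 3 µm high (confined) and collected 4 h later, or exposed to 100 ng per ml lipopolysaccharide (LPS, a bacterial cell wall component) for 30 min and left until the next day. This LPS exposure is that of the labels, and the study's methods give a slightly shorter one. This gave 6 conditions with 3 libraries each. The time since the stimulus therefore differed between confined and LPS-treated cells, and the labels give neither the age nor the sex of the mice. The labels number the libraries of a condition 1 to 3, and the study calls its RNA-seq replicates biological. Whether they came from separate cultures or animals is not stated. The p-values therefore measure the spread between these libraries, which may be smaller than that between animals. For each gene this spread was estimated over all 6 conditions together, also where a comparison leaves some of them out.

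Between 33027230 and 61300021 reads per library were recovered from the deposited values, with a median of 40950398. Pla2g4a itself had 697, 686 and 770 normalized counts in the nonconfined cPLA2WT libraries and 548, 542 and 533 in the nonconfined cPLA2KO libraries. Gene-level counts do not separate the deleted part of Pla2g4a from the rest, and the difference of -0.41 ± 0.06 (log2, SE) passed the test (adjusted p = 0.00019). In the LPS libraries it did not follow the labels: Pla2g4a had 1005, 969 and 967 normalized counts in those labelled cPLA2WT and 1065, 1032 and 1028 in those labelled cPLA2KO. The Y-linked gene Ddx3y was at 0 to 3 normalized counts in the 6 cPLA2WT libraries and at 874 to 1036 in the 6 cPLA2KO libraries of nonconfined and confined cells, so genotype and this Y-linked signal cannot be told apart there. Under LPS it was at 1271, 0 and 662 in the libraries labelled cPLA2WT and at 2, 1476 and 783 in those labelled cPLA2KO, which mixes both states within each label. LPS is therefore described over both labels together, and each genotype under LPS is called only by the label of its libraries. Within both labels, Bcl2l11, Bid, Pmaip1 and Bax ranked the LPS libraries in the order of Ddx3y, and the other members did not. Whether the LPS libraries of the 2 labels are separate samples is not known. The tests counted them as 6 separate libraries, so the SEs and p-values for LPS may be too small. The 10 DC markers examined (Itgax, H2-Ab1, H2-Aa, Cd74, Flt3, Zbtb46, Batf3, Irf4, Irf8 and Cd86) were detected in each condition. Their sum ranged from 411379 to 436170 normalized counts in nonconfined and from 364530 to 392355 in confined cPLA2WT libraries, from 486680 to 516840 and from 348112 to 361832 in the cPLA2KO groups, and from 527616 to 615361 under LPS. Of the 10, 3 rose and 6 fell with confinement in cPLA2WT DCs, where 28.2% of tested genes rose and 28.4% fell. In cPLA2KO DCs 9 fell (23.4% of tested genes). A negative difference of responses passed the test for 8 of the 10 (15.6% of tested genes). That sign was also seen for most of the survival genes below. The part of these markers in those results was not tested.

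Confinement of cPLA2WT DCs raised 5 of the 10 genes and lowered 2, whereas Pmaip1, Bax and Bak1 did not pass the test. Bcl2a1b rose 2.38-fold, Bcl2a1d 2.06-fold, Bcl2l11 2.01-fold, Mcl1 1.54-fold and Bcl2l1 1.42-fold, while Bcl2 fell to 0.581 and Bid to 0.632 of the nonconfined level. Of all tested genes, 28.2% rose and 28.4% fell in this comparison at an adjusted p under 0.05 (limma on log2(normalized count + 1)), and 19.0% also moved by more than 1 on the log2 scale, as 3 of the 10 did. The median change of the 10 genes was 0.30 on the log2 scale, beside -0.01 over all tested genes. In cPLA2KO DCs the same confinement raised 1 gene (Bcl2a1b, 1.09-fold) and lowered 2 (Bcl2 and Bid). There the median was 0.05 beside 0.01 over all tested genes, 22.8% of which rose and 23.4% fell, with 12.0% past a log2 change of 1 and none of the 10 among them. LPS raised 7 of the 10, led by Bcl2a1b (5.02-fold) and Bcl2a1d (4.67-fold), and lowered 2, where 37.2% of tested genes rose and 34.3% fell.

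**Figure D1:**
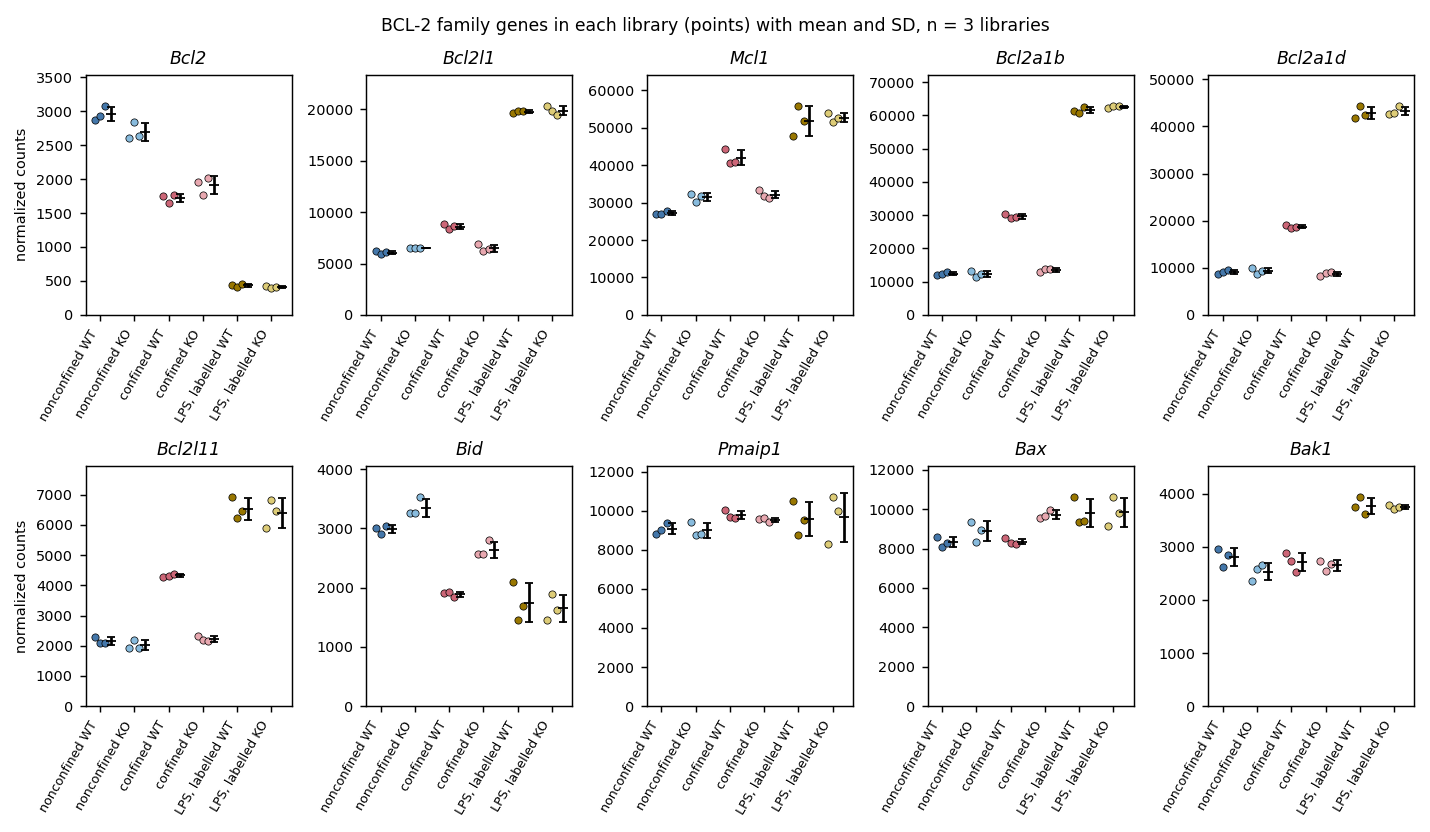
Normalized counts (linear y axis from 0) of the 10 genes in the 6 conditions. Each point is a library, and the bar beside it is the mean with its SD (n = 3). Bcl2a1b, Bcl2a1d, Bcl2l11, Mcl1 and Bcl2l1 stand higher in the 3 confined cPLA2WT libraries than in the nonconfined and the confined cPLA2KO libraries and highest under LPS. Bcl2 runs the opposite way, from about 2961 in nonconfined cPLA2WT to 434 and 409 under LPS.

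A1 is a protective member known as an inducible, short-lived protein of haematopoietic cells, and the mouse carries several near-identical copies of its gene. Bcl2a1b (chromosome 9, 89081326 to 89089891, GRCm39, plus strand) and Bcl2a1d (chromosome 9, 88605341 to 88613926, minus strand) were the most abundant members per transcript length. Their coding sequences differed at 6 of 519 bases, and those of Bcl2a1a, a copy outside the 10 genes (chromosome 9, 88838973 to 88844469, plus strand), differed from them at 11 and 7 bases. Coding bases 1 to 120 of each copy, from the GENCODE transcripts of GRCm39, are shown so that the copies can be compared base by base. The 7 positions at which the copies differ are in capitals.
Bcl2a1a: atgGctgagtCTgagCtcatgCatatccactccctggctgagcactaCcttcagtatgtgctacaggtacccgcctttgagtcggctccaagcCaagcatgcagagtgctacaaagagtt
Bcl2a1b: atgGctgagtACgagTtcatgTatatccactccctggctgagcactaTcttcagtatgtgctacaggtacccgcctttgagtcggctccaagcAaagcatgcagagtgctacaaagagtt
Bcl2a1d: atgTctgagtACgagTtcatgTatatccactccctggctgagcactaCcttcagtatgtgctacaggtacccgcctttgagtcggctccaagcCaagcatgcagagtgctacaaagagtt

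Of all 100-base windows of the transcripts, 30.9% of those of Bcl2a1b, 43.5% of those of Bcl2a1a and 55.0% of those of Bcl2a1d were identical to a window of another of these copies. The split of reads between the copies is therefore uncertain, and Bcl2a1b also overlaps Gm29094, annotated as protein coding on the same strand.

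The 250 bases before the start of Bcl2a1b and of Bcl2a1d, both from RefSeq on GRCm38.p6, are shown because both copies moved with confinement and LPS. The windows are offset from each other, so that the start of the Bcl2a1d stretch and the end of the Bcl2a1b stretch have no counterpart in the other. Over the 250 bases of the full 300-base promoters that could be aligned, Bcl2a1b and Bcl2a1d were 98.8% identical, with 6 further bases in gaps.
Bcl2a1b, chr9:89199023-89199272, plus strand: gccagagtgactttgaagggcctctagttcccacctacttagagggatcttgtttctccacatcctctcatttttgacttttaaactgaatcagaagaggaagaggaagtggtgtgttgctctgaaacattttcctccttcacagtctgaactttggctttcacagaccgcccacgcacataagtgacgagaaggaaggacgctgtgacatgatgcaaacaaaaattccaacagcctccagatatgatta
Bcl2a1d, chr9:88731851-88732100, minus strand: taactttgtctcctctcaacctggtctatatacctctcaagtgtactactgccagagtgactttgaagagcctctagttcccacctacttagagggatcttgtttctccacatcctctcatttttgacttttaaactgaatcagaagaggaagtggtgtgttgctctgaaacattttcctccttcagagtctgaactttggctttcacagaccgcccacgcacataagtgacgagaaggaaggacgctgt

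Promoters were found for 9 of the 10 genes (12 promoters of 300 bases, 250 before and 50 after the start), and 5 motifs were searched on both strands. An NF-kB site was found in 1 of the 12, that of Bcl2l1, and in 4.505% of 32851 promoters. None of the 12 held the interferon-stimulated response element (3.443% of promoters), the GAS element TTCNNNGAA (8.298%), the AP-1 site TGACTCA or TGAGTCA (5.202%) or the cAMP response element TGACGTCA (1.79%). These letters describe the windows searched and nothing beyond them.

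Bcl2a1b had 12047, 12369 and 12925 normalized counts in nonconfined cPLA2WT DCs and 30384, 29099 and 29322 after confinement. In cPLA2KO DCs the values were 13177, 11520 and 12308 without and 12809, 13697 and 13880 with confinement. Each confined cPLA2WT library thus lay above the 9 other libraries that had not seen LPS, whereas the nonconfined and confined cPLA2KO libraries overlapped. The change was 1.25 ± 0.05 (log2, SE) in cPLA2WT (adjusted p = 1.3e-15) and 0.13 ± 0.05 in cPLA2KO (adjusted p = 0.028). The call in cPLA2KO cells ended without replicate 2 or 3 of either cPLA2KO group (adjusted p not under the threshold, with changes of 0.08, 0.13, 0.11 and 0.10). The difference between the responses was -1.12 ± 0.06 (adjusted p = 1.0e-11), in a comparison where 10.2% of tested genes were higher and 15.6% lower.

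Bcl2a1d followed the same course in cPLA2WT DCs, with 8685, 9104 and 9538 normalized counts in nonconfined and 19118, 18356 and 18728 in confined libraries. In cPLA2KO DCs it had 9858, 8786 and 9410 without and 8288, 8914 and 9026 with confinement. These cPLA2KO groups overlapped, while the cPLA2WT groups stood well apart. The changes were 1.04 ± 0.05 in cPLA2WT (adjusted p = 5.2e-14) and -0.10 ± 0.05 in cPLA2KO (adjusted p = 0.11), and their difference of -1.14 ± 0.07 passed the test (adjusted p = 1.5e-11). Bcl2a1a changed by 0.77 ± 0.04 in cPLA2WT and by -0.07 ± 0.04 in cPLA2KO DCs.

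Under LPS, Bcl2a1b reached 61448, 60832 and 62482 normalized counts in the libraries labelled cPLA2WT and 62189, 62841 and 62748 in those labelled cPLA2KO. Bcl2a1d reached 41725, 44264 and 42496 in the former and 42614, 42869 and 44353 in the latter. The 6 LPS libraries were thus far above any other for both copies, with changes of 2.33 ± 0.03 for Bcl2a1b and 2.22 ± 0.03 for Bcl2a1d against nonconfined cells. Within the sum of the 3 copies, Bcl2a1b made up 44.8% ± 0.38 (SD, n = 3) in nonconfined and 50.2% ± 0.20 in confined cPLA2WT DCs. The share of Bcl2a1a moved the other way, from 22.5% ± 0.78 to 18.03% ± 0.16, and that of Bcl2a1d from 32.8% ± 0.51 to 31.8% ± 0.15. In cPLA2KO DCs the share of Bcl2a1b went from 44.1% ± 0.40 to 47.8% ± 0.28 and that of Bcl2a1a from 22.4% ± 0.42 to 21.2% ± 0.55. These shares were not tested.

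**Figure D2:**
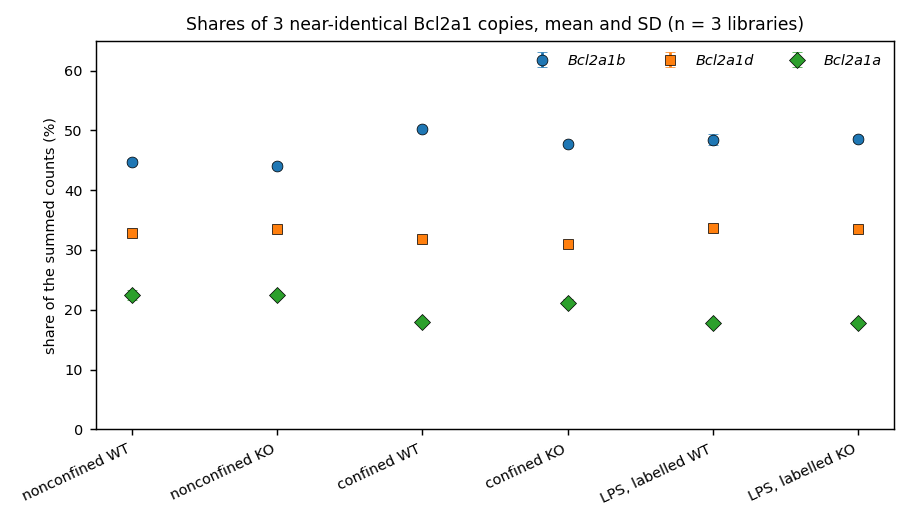
Share (%) of Bcl2a1b, Bcl2a1d and Bcl2a1a in the summed normalized counts of the 3 copies, by condition. Symbols are means and bars the SD (n = 3 libraries). Bcl2a1b holds the largest share in each condition (44.1% to 50.2%), and Bcl2a1a is lowest in confined cPLA2WT and LPS libraries (17.8% to 18.03%).

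Mcl1 encodes MCL-1, a labile protective member. It had 26844, 27018 and 27775 normalized counts in nonconfined and 44276, 40658 and 40980 in confined cPLA2WT DCs. In cPLA2KO DCs it had 32220, 30164 and 31854 without and 33315, 31851 and 31353 with confinement. The nonconfined cPLA2KO libraries therefore stood above the nonconfined cPLA2WT libraries, and confinement left the cPLA2KO groups overlapping. Mcl1 changed by 0.62 ± 0.05 in cPLA2WT (adjusted p = 7.7e-10) and by 0.03 ± 0.05 in cPLA2KO DCs (adjusted p = 0.61), a difference of -0.59 ± 0.07 (adjusted p = 1.4e-06). LPS libraries held 47761, 55867 and 51892 when labelled cPLA2WT and 53916, 51583 and 52569 when labelled cPLA2KO, none of which overlapped with the nonconfined or the confined libraries. Against nonconfined cells the change under LPS was 0.84 ± 0.04.

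Bcl2l1, whose main product BCL-XL protects mitochondria, had 6207, 5916 and 6087 normalized counts in nonconfined and 8819, 8325 and 8628 in confined cPLA2WT DCs. In cPLA2KO DCs the values were 6538, 6535 and 6460 without and 6873, 6191 and 6418 with confinement. Only the cPLA2WT groups separated. The change was 0.50 ± 0.04 in cPLA2WT (adjusted p = 9.2e-10) and -0.005 ± 0.041 in cPLA2KO, and the responses differed by -0.51 ± 0.06 (adjusted p = 6.3e-07). With LPS it reached 19614, 19879 and 19793 in the libraries labelled cPLA2WT and 20331, 19858 and 19408 in those labelled cPLA2KO. These values were above those of each other library. The change was 1.66 ± 0.03 against nonconfined cells, and confined cPLA2WT cells differed from LPS-treated cells by -1.21 ± 0.04 (adjusted p = 5.8e-17).

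Bcl2, the founding protective member, was the survival gene that fell. It had 2872, 2934 and 3077 normalized counts in nonconfined cPLA2WT DCs and 1755, 1647 and 1761 after confinement. In cPLA2KO DCs it had 2603, 2841 and 2634 without and 1955, 1765 and 2014 with confinement. Neither genotype showed overlap between nonconfined and confined libraries. The changes were -0.78 ± 0.06 (adjusted p = 6.5e-10) and -0.50 ± 0.06 (adjusted p = 1.3e-06), and the fall was smaller in cPLA2KO DCs by 0.29 ± 0.09 (adjusted p = 0.020). This difference was no longer past the threshold without cPLA2WT replicate 3 of nonconfined cells (0.26), cPLA2WT replicate 2 of confined cells (0.26) or cPLA2KO replicate 3 of confined cells (0.25). Under LPS, Bcl2 was at 447, 405 and 451 normalized counts in the libraries labelled cPLA2WT and at 422, 399 and 406 in those labelled cPLA2KO. That is a change of -2.74 ± 0.04 on the log2 scale, to 0.150 of the nonconfined level, and the largest change among the 10 genes.

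Bcl2 is a gene that lymphocytes express, and the sum of T cell markers also fell with confinement and with LPS. Between nonconfined genotypes they went opposite ways. There the sum was higher in cPLA2KO DCs, whereas Bcl2 was lower without passing the test. The summed normalized counts of 5 T cell markers (Cd3d, Cd3e, Cd3g, Cd4 and Cd8a) ranged from 2447 to 2515 in nonconfined and from 695 to 827 in confined cPLA2WT DCs. They ranged from 2870 to 3180 and from 1024 to 1240 in the cPLA2KO groups, and from 431 to 525 under LPS. Most of this sum was Cd3g, with 2306 normalized counts on average in nonconfined cPLA2WT DCs, where Cd3e had 22.7, Cd4 7.83 and Cd8a 7.75. Of the 5, 4 fell in confined cPLA2WT DCs (28.4% of tested genes) and 3 in confined cPLA2KO DCs (23.4% of tested genes). Under LPS 3 fell (34.3% of tested genes), whereas Cd8a rose by 1.81 ± 0.44 (log2, SE) from its low level. Their part in the fall of Bcl2 was not tested. In bulk samples, fewer cells of a type and less RNA per cell cannot be told apart.

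BIM, the product of Bcl2l11, is a BH3-only protein that binds each of the protective members. Bcl2l11 had 2302, 2090 and 2078 normalized counts in nonconfined and 4288, 4309 and 4387 in confined cPLA2WT DCs. In cPLA2KO DCs it had 1936, 2205 and 1933 without and 2329, 2183 and 2143 with confinement. The pro-apoptotic Bcl2l11 thus rose along with the survival genes in confined cPLA2WT DCs, and the cPLA2KO groups overlapped. The change was 1.01 ± 0.06 in cPLA2WT (adjusted p = 1.2e-11) and 0.13 ± 0.06 in cPLA2KO (adjusted p = 0.091), with a difference of -0.87 ± 0.09 (adjusted p = 1.2e-07). Under LPS it was at 6915, 6216 and 6447 in the libraries labelled cPLA2WT and at 5882, 6838 and 6461 in those labelled cPLA2KO. These values were above those of each confined library, and the change against nonconfined cells was 1.63 ± 0.04. Bcl2l11 overlaps Gm74510, annotated as protein coding, by 2436 bases on the same strand, and how such reads were counted was not given in the sources used here.

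BID is a BH3-only protein that caspase-8 cleaves to link death receptors to mitochondria. Bid had 3007, 2909 and 3047 normalized counts in nonconfined and 1909, 1919 and 1838 in confined cPLA2WT DCs. In cPLA2KO DCs it had 3263, 3253 and 3527 without and 2563, 2563 and 2798 with confinement. It was lower after confinement in both genotypes, without overlap. The changes were -0.66 ± 0.10 (adjusted p = 5.8e-06) and -0.34 ± 0.10 (adjusted p = 0.0067), and their difference of 0.32 ± 0.14 missed the threshold (adjusted p = 0.099). These SEs draw on all 18 libraries, and Bid varied most under LPS. Its SD was 330 and 225 normalized counts in the LPS groups labelled cPLA2WT and cPLA2KO. In the nonconfined and confined groups it lay between 44.1 and 155. A difference between the genotypes in the fall of Bid is therefore not excluded by this miss. Under LPS, Bid was at 2102, 1449 and 1695 in the libraries labelled cPLA2WT and at 1447, 1894 and 1621 in those labelled cPLA2KO, which overlapped with confined cPLA2WT cells. Against nonconfined cells the change was -0.91 ± 0.07 (adjusted p = 1.1e-10). Bid overlaps Bcl2l13 on the opposite strand, and the strand setting of the counting was not given in the sources used here.

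Pmaip1 encodes NOXA, the BH3-only partner of MCL-1 and A1, and differed little between conditions. Its 18 values lay between 8289 and 10689 normalized counts. With 8820, 9000 and 9377 in nonconfined and 10013, 9651 and 9630 in confined cPLA2WT DCs, the libraries did not overlap, yet the change of 0.11 ± 0.07 missed the threshold (adjusted p = 0.21). The 95% interval of that change ran from -0.04 to 0.25. Its width draws on all 18 libraries, and the SD of Pmaip1 was 870 and 1232 normalized counts in the LPS groups. In nonconfined and confined cPLA2WT DCs the SD was 284 and 215. In cPLA2KO DCs the change was 0.09 ± 0.07 (adjusted p = 0.34), and under LPS it was 0.09 ± 0.05 (adjusted p = 0.13), a direction that turned to -0.41 when each library was scaled to the same total.

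The effectors did not pass the test under confinement in either genotype. Bax had 8574, 8064 and 8292 normalized counts in nonconfined and 8525, 8293 and 8255 in confined cPLA2WT DCs, and 9333, 8330 and 8959 without and 9556, 9646 and 9964 with confinement in cPLA2KO DCs. The confined cPLA2KO libraries were above the others of these 4 groups. Neither change passed the test, at 0.01 ± 0.06 (95% interval -0.11 to 0.13) in cPLA2WT and 0.13 ± 0.06 (adjusted p = 0.059) in cPLA2KO DCs. Under LPS, Bax ranged from 9131 to 10607 and rose by 0.19 ± 0.04 (adjusted p = 0.00019) with overlapping libraries, a direction that turned to -0.30 when each library was scaled to the same total. Bak1 had 2949, 2613 and 2844 in nonconfined and 2879, 2737 and 2528 in confined cPLA2WT DCs, and 2352, 2579 and 2663 without and 2728, 2538 and 2683 with confinement in cPLA2KO DCs. Those 4 groups overlapped. Under LPS the 6 values of Bak1 ranged from 3623 to 3932, above all of these, for a change of 0.50 ± 0.04 (adjusted p = 5.1e-10) that fell to 0.00 under the same scaling. Bak1 overlaps Ggnbp1 and Gm50253 on the opposite strand, and Bax overlaps Gm45808 by 915 bases on its own strand.

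**Figure D3:**
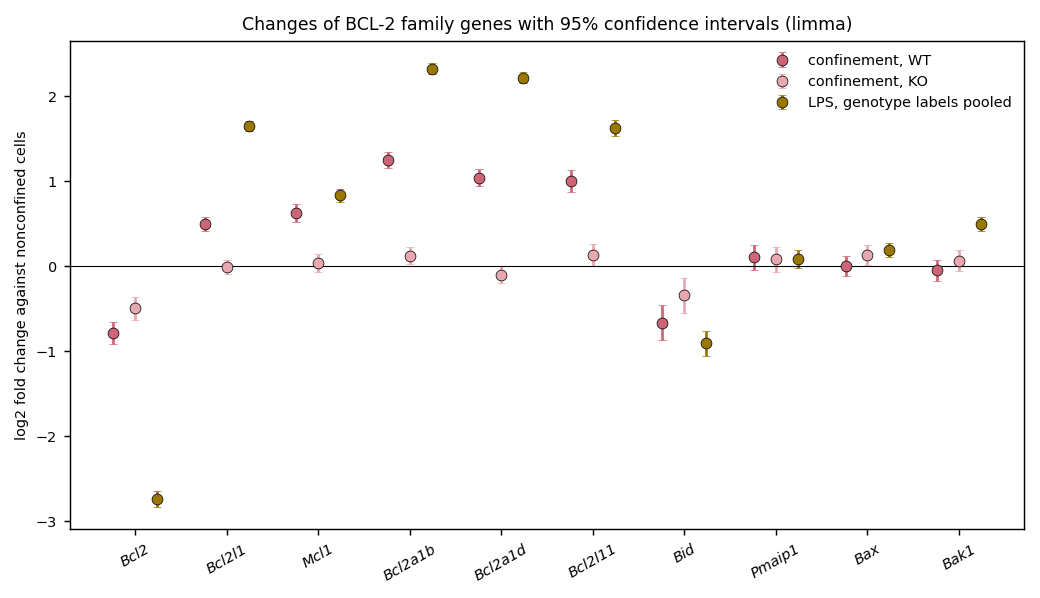
Change against nonconfined cells (log2 fold change, y axis) of the 10 genes for confinement in cPLA2WT, confinement in cPLA2KO and LPS with both genotype labels together. Points are limma estimates and bars their 95% confidence intervals. Bcl2a1b, Bcl2a1d, Bcl2l11, Mcl1 and Bcl2l1 lie between 0.50 and 1.25 for confinement in cPLA2WT, between -0.10 and 0.13 in cPLA2KO and between 0.84 and 2.33 for LPS, while Bcl2 and Bid lie below 0 in all 3.

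Before confinement the genotypes differed in 1 of the 10 genes. Between nonconfined cPLA2KO and cPLA2WT DCs only Mcl1 passed the test, higher by 0.21 ± 0.05 (adjusted p = 0.014), in a comparison that called 4.78% of tested genes higher and 4.11% lower. This call ended without replicate 1 or 2 of the cPLA2WT libraries (0.20 and 0.20) and without replicate 1 or 3 of the cPLA2KO libraries (0.19 and 0.20). After confinement 7 of the 10 genes differed between genotypes, where 18.8% of tested genes were higher and 20.6% lower in cPLA2KO DCs. Bcl2a1b was at 0.455, Bcl2a1d at 0.466, Bcl2l11 at 0.512, Bcl2l1 at 0.755 and Mcl1 at 0.767 of the cPLA2WT level. Bid was 1.40-fold (adjusted p = 0.00044) and Bax 1.16-fold higher (adjusted p = 0.0037). Bcl2 was higher by 0.15 ± 0.06 without overlap, but missed the threshold (adjusted p = 0.065). Over the difference of responses, where 10.2% of tested genes were higher and 15.6% lower, 6 genes passed the test, Bcl2 with a positive and Bcl2l1, Mcl1, Bcl2a1b, Bcl2a1d and Bcl2l11 with a negative value.

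Granulocyte markers differed between the same groups. The summed normalized counts of 10 neutrophil markers (Elane, Mpo, Ctsg, Ms4a3, S100a8, S100a9, Ly6g, Ngp, Ltf and Camp) ranged from 240666 to 245736 in nonconfined and from 144909 to 154436 in confined cPLA2WT DCs, from 334044 to 371591 and from 331168 to 347050 in the cPLA2KO groups, and from 278330 to 313464 under LPS. All 10 fell with confinement in cPLA2WT DCs (28.4% of tested genes fell) and all 10 had a positive difference of responses (10.2% of tested genes), with none at 0. In cPLA2KO DCs 5 of the 10 fell with confinement (23.4% of tested genes). The sum was mostly S100a8 and S100a9, which did not pass the test in cPLA2KO DCs. Of the 10, 6 were already higher in nonconfined cPLA2KO DCs (4.78% of tested genes). Eosinophil markers (Epx, Prg2, Ear1, Ear2, Ear6 and Siglecf) summed to between 33111 and 33270 in nonconfined and between 9048 and 9622 in confined cPLA2WT DCs, and to between 76099 and 82113 and between 24585 and 25454 in the cPLA2KO groups. Of the 6, 5 fell with confinement in each genotype (28.4% of tested genes in cPLA2WT and 23.4% in cPLA2KO). The same 5 were higher in cPLA2KO DCs in both states (4.78% of tested genes nonconfined and 18.8% confined). Siglecf went otherwise, with changes of 0.04 ± 0.10 and 0.23 ± 0.10 under confinement that did not pass the test and with lower values in cPLA2KO DCs (-0.57 ± 0.10 nonconfined and -0.39 ± 0.10 confined). The 6 markers of mast cells and basophils summed to between 6853 and 7073, 14534 and 15239, 10236 and 10659, and 5471 and 5615 in the same order, with the rise in confined cPLA2WT DCs from Hdc alone among the 6. Macrophage markers (8 genes) stayed between 25739 and 36165 in all conditions and B cell markers (5 genes) at or below 113. The part of these cells in the results for the BCL-2 family was not tested.

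Against LPS-treated cells, confined cPLA2WT DCs had 1 gene higher, Bcl2 by 2.03 ± 0.05, and 7 lower, in a comparison that called 24.5% of tested genes higher and 29.8% lower. Mcl1 (-0.32 ± 0.04) and Bax (-0.23 ± 0.05) were the closest to the LPS level among the 7, and Bcl2l1 (-1.21 ± 0.04) and Bcl2a1d (-1.20 ± 0.04) the farthest. Confined cPLA2KO DCs had 2 higher (Bcl2 by 2.18 ± 0.05 and Bid by 0.65 ± 0.08) and 6 lower, with Bcl2a1d at -2.30 ± 0.04 and Bcl2a1b at -2.21 ± 0.04, where 30.3% of tested genes were higher and 32.5% lower. The comparison of LPS with nonconfined cells, which shares its libraries with these, called 37.2% of tested genes higher and 34.3% lower, with 29.0% past a log2 change of 1, and 5 of the 10 genes were past it (Bcl2a1b, Bcl2a1d, Bcl2l1, Bcl2l11 and Bcl2). Their median was 0.67 beside 0.02 over all tested genes. Between the LPS libraries labelled cPLA2KO and cPLA2WT, 0 of the 10 genes passed the test, with changes between -0.09 and 0.03. There limma called 0 of 17875 genes (0.00% higher and 0.00% lower) with 890 at an unadjusted p under 0.05, edgeR called 0 with 812, and DESeq2 called 0 with 831. Each label mixed both states of Ddx3y, and Pla2g4a did not follow the labels. The comparison of these labels therefore cannot show whether genotype matters under LPS.

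Per kilobase of the canonical transcript, Bcl2a1b stood first in each condition, at 15069 ± 538 normalized counts per kilobase (SD, n = 3) in nonconfined cPLA2WT DCs, 35838 ± 831 after confinement and 74561 ± 1010 in LPS libraries labelled cPLA2WT. Bcl2a1d followed at 10555 ± 494 in nonconfined cPLA2WT DCs. Bax (8514 ± 262) and Mcl1 (7795 ± 142) came next, then Pmaip1 (3318 ± 104), Bcl2l1 (1859 ± 44.8), Bid (1357 ± 32.4), Bak1 (1174 ± 72.0), Bcl2l11 (427 ± 24.9) and Bcl2 (409 ± 14.5). Bcl2l11 and Bcl2 overlapped in nonconfined cells of both genotypes, as did Bax and Mcl1 in nonconfined cPLA2KO cells, Bid and Bcl2l11 in confined cPLA2WT cells, and Bcl2a1d and Bax in confined cPLA2KO cells. The other neighbours in the order did not overlap in the nonconfined and confined groups. After confinement of cPLA2WT DCs, Mcl1 (12023 ± 574) stood above Bax (8563 ± 150). In LPS libraries labelled cPLA2WT, Bcl2l1 (6053 ± 41.5) stood above Pmaip1 (3507 ± 318) and Bcl2 was at 59.95 ± 3.58. Dividing by all annotated exon bases put Mcl1 above Bax in each condition and moved Bid, Bcl2 and Bcl2l11 among the last places.

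**Figure D4:**
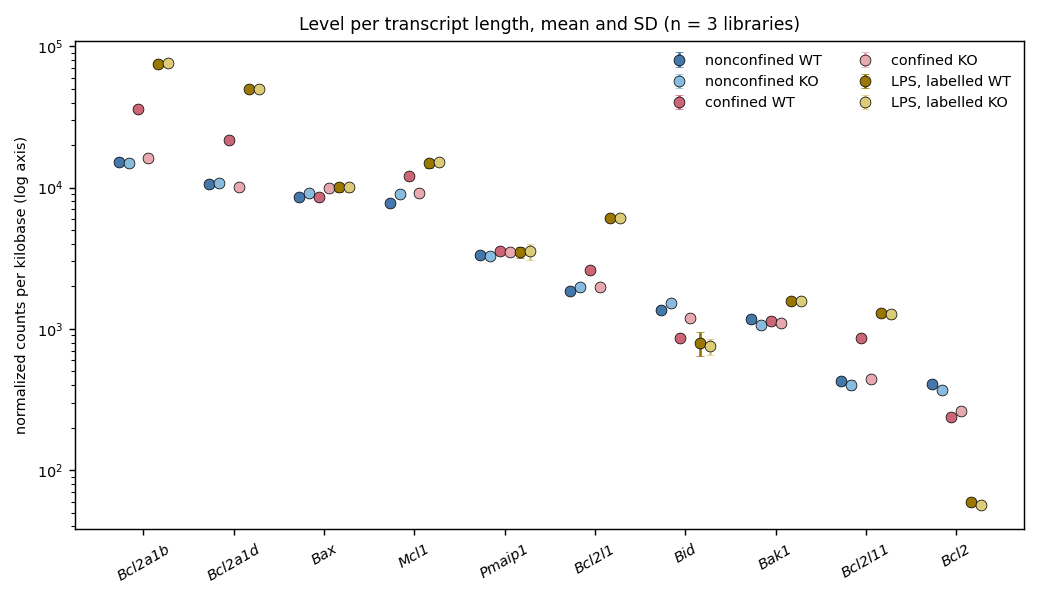
Level of each gene per kilobase of its canonical transcript (normalized counts per kilobase, log axis), ordered by the level in nonconfined cPLA2WT DCs. Points are means of 3 libraries and bars the SD. The order runs from Bcl2a1b at 15069 to Bcl2 at 409, and Bcl2 reaches its lowest level, 56.5 to 59.95, under LPS.

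Across the 18 libraries, which share conditions and scaling, the gene most like Bcl2a1b among 10554 genes with a symbol and a mean of at least 100 normalized counts was Cd40, a costimulatory receptor (Pearson's r = 0.997 of the log2 values), followed by Gpr84 and Cdkn1a (0.997 each). Bcl2a1d was most like its copy Bcl2a1a (0.999), then Sppl2a (0.998) and Serpinb9 (0.997). Bcl2l11 ran with Plagl2, Dennd3 and Birc3 (0.996 each), Bcl2l1 with Map2k1, Triobp (0.997 each) and Ppp1cb (0.996), and Mcl1 with Rfk (0.991), Grb2 (0.990) and Cd86 (0.989). Bcl2 was most like Oxct1 (0.996), Gpr146 (0.992) and Susd3 (0.991), and Bid like Tppp3 (0.980), Hepacam2 (0.978) and Olfm1 (0.975). The effectors had Ggn (0.976), Gopc (0.974) and St13 (0.973) nearest to Bak1 and Fam219a (0.950), C5ar1 (0.938) and Ubxn6 (0.925) nearest to Bax. No gene came as close to Pmaip1, where Anpep led at 0.791 before Plpbp (0.776) and Iah1 (0.744). These values are descriptions of 6 conditions and not tests.

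Of 17 other BCL-2 family genes, 15 passed the filter on low values (Bcl2l10 and Hrk did not). Confinement raised 5 and lowered 1 of them in cPLA2WT DCs, raised 4 and lowered 2 in cPLA2KO DCs, and LPS raised 6 and lowered 4. Their median changes were -0.07, -0.07 and 0.07 on the log2 scale, beside -0.01, 0.01 and 0.02 over all tested genes. Over all tested genes, 28.2% rose and 28.4% fell with confinement in cPLA2WT, 22.8% and 23.4% in cPLA2KO, and 37.2% and 34.3% with LPS, so that the counts of this list that rose lay near the background. Beside Bcl2a1a, the mitophagy receptor gene Bnip3 rose by 0.67 ± 0.17 in confined cPLA2WT and by 0.44 ± 0.17 in confined cPLA2KO DCs and by 3.28 ± 0.12 under LPS. Its relative Bnip3l rose by 0.62 ± 0.09 in confined cPLA2KO DCs. Bcl2l12 fell by 0.49 on the log2 scale in confined cPLA2WT DCs, by 0.54 in confined cPLA2KO DCs and by 0.83 under LPS, and the BH3-only gene Bbc3 (PUMA) fell by 0.73 under LPS. Between nonconfined cPLA2KO and cPLA2WT DCs, 0 of the 15 genes passed the test.

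Caspases and their regulators changed in both directions. Of 22 genes, 7 rose and 10 fell with confinement in cPLA2WT DCs, 7 rose and 6 fell in cPLA2KO DCs, and 12 rose and 9 fell under LPS, with medians of -0.14, -0.10 and 0.13 beside -0.01, 0.01 and 0.02 over all tested genes. The background was 28.2% rising and 28.4% falling, 22.8% and 23.4%, and 37.2% and 34.3% in the same order. Cflar, which encodes the caspase-8 inhibitor c-FLIP, rose by 2.29 ± 0.09 in confined cPLA2WT DCs, by 0.88 ± 0.09 in confined cPLA2KO DCs and by 3.64 ± 0.06 under LPS. The death receptor gene Fas rose by 1.97 ± 0.09, 0.56 ± 0.09 and 2.22 ± 0.06 in the same order. Parp1, a DNA repair gene whose product caspases cleave, fell by 1.07, 0.61 and 1.57. Endog, a mitochondrial nuclease gene, fell by 0.62 in confined cPLA2WT DCs. Casp2 fell by 0.35 in confined cPLA2WT and by 0.37 in confined cPLA2KO DCs, and the executioner caspase gene Casp6 fell by 1.71 under LPS.

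Genes for inhibitors of apoptosis and for the turnover of MCL-1 formed a list of 12. Of these, 8 rose and 1 fell with confinement in cPLA2WT DCs, 5 rose and 3 fell in cPLA2KO DCs, and 10 rose and 1 fell under LPS, with medians of 0.54, 0.16 and 0.71 beside -0.01, 0.01 and 0.02 over all tested genes, of which 28.2%, 22.8% and 37.2% rose and 28.4%, 23.4% and 34.3% fell. The ubiquitin ligase gene Birc3 (cIAP2) rose by 1.37 ± 0.04 in confined cPLA2WT DCs, by 0.29 ± 0.04 in confined cPLA2KO DCs and by 2.20 ± 0.03 under LPS. Its neighbour Birc2 (cIAP1) rose by 0.97 ± 0.06 in confined cPLA2WT DCs but fell by 0.29 in confined cPLA2KO DCs. Birc5, which encodes survivin, a protein of dividing cells, fell by 0.90, 0.66 and 1.34 in confined cPLA2WT, confined cPLA2KO and LPS-treated DCs. In confined cPLA2KO DCs the largest increases were those of Naip2 (0.75 ± 0.05), a sensor of bacterial proteins, and Usp9x (0.51 ± 0.09), a deubiquitinase of MCL-1. Both also rose in confined cPLA2WT DCs, by 0.81 ± 0.05 and 0.79 ± 0.09. Marchf5, a ubiquitin ligase of the mitochondrial outer membrane, rose by 1.38 ± 0.04 under LPS and by 0.93 ± 0.05 in confined cPLA2WT DCs. It fell by 0.18 in confined cPLA2KO DCs.

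**Figure D5:**
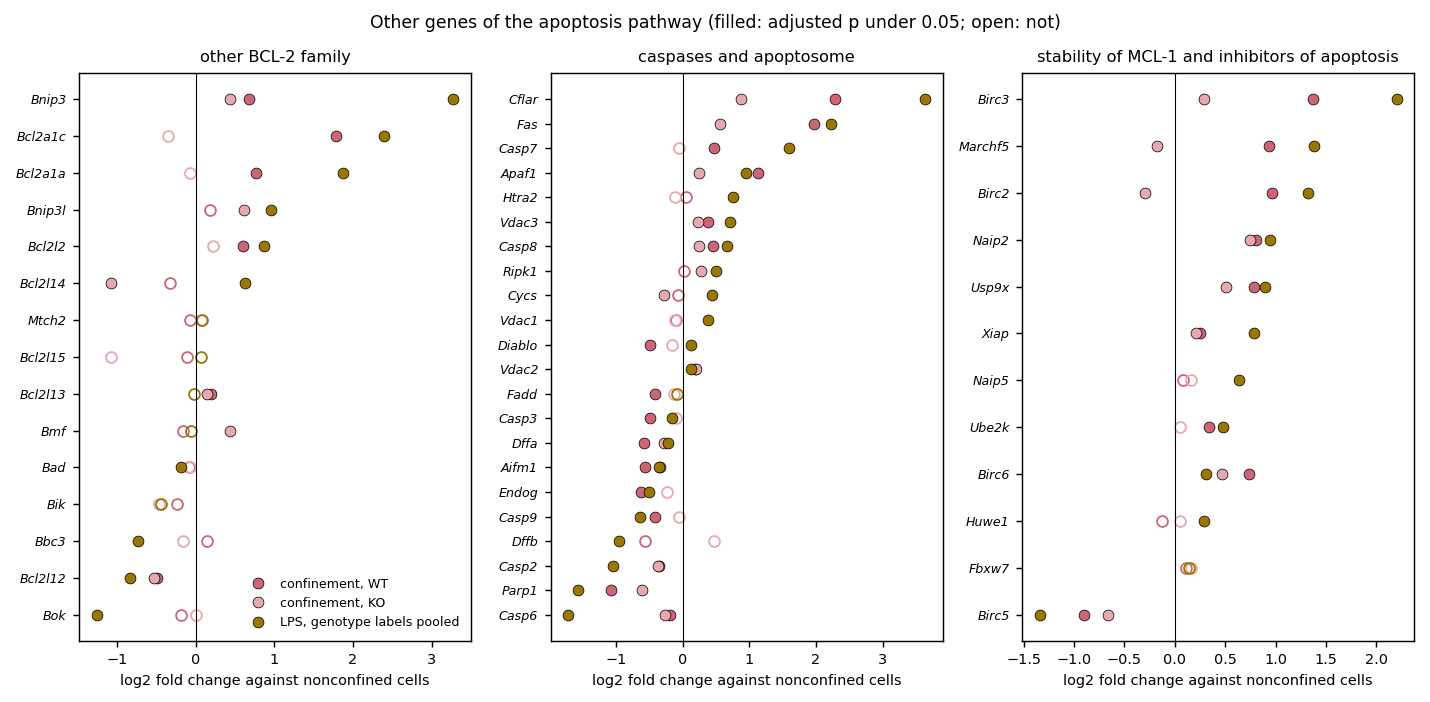
Change against nonconfined cells (log2 fold change, x axis) of the tested genes of 3 lists: 15 other BCL-2 family genes, 22 caspases and regulators, and 12 genes for MCL-1 turnover and inhibitors of apoptosis. Filled points passed the test (adjusted p under 0.05) and open points did not. Cflar (2.29 and 3.64) and Fas (1.97 and 2.22) lie farthest to the right in the middle panel for confinement in cPLA2WT and for LPS.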

How the data were processed

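The values deposited are signal per gene (normalized counts). Per the labels and the study's methods, the authors aligned reads from stranded, poly(A)-selected libraries (2 kits, with the kit of each library not given) with STAR 2.7.5a to GRCm39, counted them with featureCounts 1.5.0, and divided the counts by DESeq2 size factors. Values were tested with limma 3.58.1 (R 4.3.3) on log2(normalized count + 1) in 1 fit over 18 libraries, on the 17875 genes that reached 10 normalized counts in 3 or more libraries, with Benjamini-Hochberg adjustment within each comparison and calls at an adjusted p under 0.05. Whole reads were recovered for 100% of values (tolerance 0.01) for the tests with edgeR 4.0.16 and DESeq2 1.42.0. The fit was tested on simulated data. Libraries of 1 condition differed by more than sampling noise (chi-square per degree of freedom 3.91 to 42.7). Other alternatives were the pseudocount, filter, scaling, replicate block, libraries in the fit and leaving out each library. The 10 genes and the gene lists were chosen with earlier results of these data known. Genes named from the lists were those called that rose most (2) and fell most (2), given a mean of 100 or more normalized counts, and genes of like pattern were the 3 with the highest correlation.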

Additional observations from a re-analysis of the deposited data

Results flagged for a closer look

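The response to confinement differed between cPLA2KO and cPLA2WT DCs by the test of that difference itself for 6 of the 10 genes, where 10.2% of tested genes were higher and 15.6% lower (cPLA2KO response minus cPLA2WT response, log2, limma): 0.29 for Bcl2, -0.51 for Bcl2l1, -0.59 for Mcl1, -1.12 for Bcl2a1b, -1.14 for Bcl2a1d and -0.87 for Bcl2l11. Genotype and the Y-linked signal of Ddx3y cannot be told apart in these groups.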

How the results depend on the processing

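A value counted as unchanged if both fits called it in the same direction or neither called it, and in the latter case direction was not compared. Of 1640 values of single genes under alternatives, 1595 were unchanged, 17 lost the call, 22 gained it and 6 turned direction. Those 6 came from scaling each library to the same total: Bax at -0.217 (confinement in cPLA2WT), -0.305 (LPS), 0.058 (confined cPLA2WT against LPS) and 0.432 (confined cPLA2KO against LPS), and Pmaip1 at -0.411 (LPS) and 0.437 (confined cPLA2KO against LPS). That scaling moved the median of all tested genes to -0.23 for confinement in cPLA2WT, -0.46 for LPS, 0.24 for the difference of responses, 0.19 between confined genotypes, and 0.27 and 0.46 for confined cPLA2WT and cPLA2KO against LPS. It gave 4 genes that fell with confinement in cPLA2WT, 0 that rose in cPLA2KO, 4 positive differences of responses, 4 that fell with LPS, and 3 and 4 that were higher in confined cPLA2WT and cPLA2KO than under LPS. In the same order, 10958, 8340, 6703, 13800, 10735 and 13115 of 17875 tested genes were called in either direction.

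The number that rose with confinement in cPLA2KO was 0 with no filter, 2 with a filter of 100 normalized counts and 0 in a fit of the compared conditions alone, which gave 2 positive differences of responses. For confinement in cPLA2KO these fits called 8079 of 31495, 7204 of 11894 and 7956 of 17875 genes in either direction. The last of them called 5228 of 17875 for the difference of responses. TMM scaling and edgeR each gave 2 genes higher in confined cPLA2WT than under LPS, where they called 9568 and 9641 of 17875 genes in either direction. With an absolute log2 change above 1 required as well, 3 rose and 0 fell with confinement in cPLA2WT, 0 and 0 in cPLA2KO, 0 and 2 for the difference of responses, 0 rose between nonconfined genotypes, 0 rose and 2 fell between confined genotypes, 4 rose and 1 fell with LPS, 3 were lower in confined cPLA2WT than under LPS and 1 was higher in confined cPLA2KO. In the same order, 3400, 2139, 1371, 206, 1805, 5188, 2647 and 4227 of 17875 tested genes were past both limits in either direction. Leaving out single libraries gave 0 to 2 that rose with confinement in cPLA2KO, 0 to 1 positive differences of responses, 0 to 1 higher between nonconfined genotypes, and 1 to 2 higher in confined cPLA2WT than under LPS (Bid joined Bcl2 without LPS replicate 1 labelled cPLA2WT, 0.23, or replicate 2 labelled cPLA2KO, 0.22). Of 17875 tested genes, 7271 to 7891, 4066 to 4673, 756 to 2097 and 8577 to 9640 were then called in either direction, in the same order. The cause of these shifts was not tested.

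The correlation of same-numbered deviations ranged from -0.14 to 0.34. Differently numbered libraries were not compared, so that these values do not settle whether the replicate numbers pair the samples. In the fit with a replicate block 90 of 90 values kept their call, with 5 genes that rose and 2 that fell with confinement in cPLA2WT. The LPS libraries labelled cPLA2WT alone and cPLA2KO alone, tried after seeing the data, each kept the calls of both together. Depth was not the limit for these genes, the lowest of which had 329 reads in a library.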
